A study of Mus musculus with 6 samples.

Results

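The genes described here carry glucose through glycolysis to lactate or belong to the transcriptional response to low oxygen. They are 38 genes, chosen by name, and all 38 were found among the 39089 genes of the deposited gene table. They fall into 7 groups by role. Along the route these are glucose transporters, the upper and the lower steps of glycolysis, and lactate and pyruvate handling. The enzymes that set the level of fructose 2,6-bisphosphate, an activator of phosphofructokinase, form a further group. The others are the hypoxia-inducible factors with their hydroxylases, and targets of those factors. All 6 samples were wild-type RAW264.7 cells, a mouse macrophage-like leukemia line. Every sample had received lipopolysaccharide (LPS, a bacterial endotoxin that activates macrophages) at 100 ng/mL for 48 h. The LPS group (n = 3) had no further treatment, and the LPS with LIPUS group (n = 3) was also exposed to low-intensity pulsed ultrasound, a weak acoustic stimulus, at 45 mW/cm2 for 25 min in 2 sessions 24 h apart. Cells without LPS are not analysed here, so the values do not show what LPS itself did to these genes.

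Glycolysis splits glucose into pyruvate in the cytosol, and cells that do not pass the pyruvate on to mitochondria reduce it to lactate and export it. Macrophages activated by LPS are known for a shift towards this route. The hypoxia-inducible factors are transcription factors whose alpha subunits are hydroxylated by oxygen-dependent EGLN enzymes and then destroyed, and LPS is known to raise Hif1a transcription in macrophages even with oxygen present. Most glycolytic genes are targets of these factors, which bind a short DNA core in promoters and enhancers. The comparison addressed here is whether the transcripts of this route differed in LPS-treated cells after ultrasound.

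No gene of the route passed the test. Of the 38 genes, 35 had enough reads, and 0 of these 35 had an adjusted p below 0.05, against 0.0% of all 12571 genes tested (edgeR's quasi-likelihood test, Benjamini-Hochberg adjusted over the 12571 genes). The adjusted p was 0.999 for each of the 35. At an unadjusted p below 0.05 the counts were 0 of 35 genes and 4.61% of all genes tested, and DESeq2 also gave 0 of 35 by either measure. Of the 35, Pfkm had the smallest unadjusted p. The 95% interval of the fold change lay inside 1.25-fold in either direction for 32 of the 35 genes, or 91.4%, against 59.6% of all genes tested. Intervals of abundant genes are narrower, and most of the 38 are abundant. Among the 7554 tested genes with an average log2 CPM of at least 4, a level chosen after the values were seen, 92.2% had such an interval. The 3 genes whose interval reached beyond 1.25-fold were Slc2a3, Egln3 and Ankrd37.

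Log2 fold changes, given as LIPUS-exposed over LPS alone, were below 0 for 29 of the 35 genes and above 0 for Slc2a6, Pfkl, Pfkfb4, Hif1a, Vegfa and Ankrd37. Below 0 were also 52.4% of all genes tested, and 55.7% of the genes with an average log2 CPM of at least 4. The median of the 35 was -0.046, beside -0.005 over all genes tested. The median of the 35 was -0.027 without LPS with LIPUS replicate 1, where that of all genes was -0.001. On the log2(TPM + 1) scale both medians were higher by a similar amount, -0.028 for the 35 and 0.012 for all genes. Relative to each gene's mean over the 6 libraries, the median of the 35 genes was 0.01, 0.04 and 0.03 (log2) in LPS replicates 1 to 3 and -0.05, -0.02 and -0.02 in LPS with LIPUS replicates 1 to 3. These library medians were taken from CPM and did not overlap between the groups. The same medians over all genes tested were not computed. In TPM the summed levels of the 38 genes did overlap. They were 12650, 12840 and 12830 TPM in LPS and 12320, 12210 and 12980 TPM in LPS with LIPUS.

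**Figure D1:**
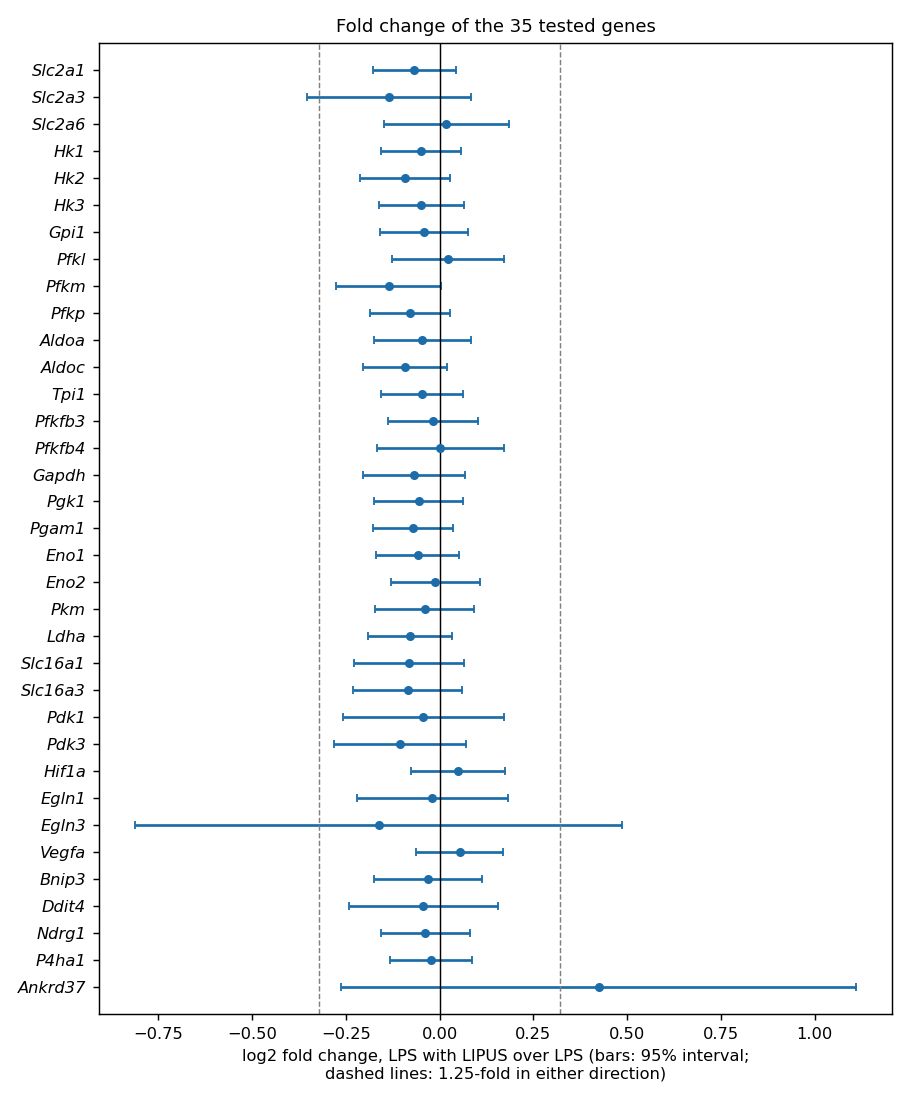
Log2 fold change of the 35 tested genes (x axis, LIPUS-exposed over LPS alone), with 95% intervals as bars, genes ordered by role from glucose transporters at the top to targets of the hypoxia-inducible factors at the bottom. The points of 29 genes lie left of 0, and the intervals of 32 lie between the dashed lines at 1.25-fold.

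Read counts per library ranged from 14171061 to 15956693. The labels do not say that replicates were separate cultures, so the p-values measure the spread between these samples, which may be technical. LPS with LIPUS replicate 2 was the highest library of its group for 17 of the 35 genes and the lowest for 14, and the genes it placed highest were shorter (median length 2676 bases) than those it placed lowest (4253 bases). The same held over all tested genes, with median lengths of 2661.5 and 4642.5 bases. The part of this length pattern in the values below was not tested. The ranges given below with 1 library left out are the lowest and the highest of 6 such fits. All 10 listed markers of macrophages were detected in every library. They summed to 18840 to 19300 TPM in LPS and 18130 to 19360 TPM in LPS with LIPUS. Most of that sum was Lyz2, with a mean of 15770 TPM over the 6 libraries. Fcgr1 (6.45 to 9.39 TPM) and Fcgr3 (6.98 to 9.95 TPM) were low. Of the lists for other cell types, epithelial markers were at 0 in all libraries, and T cell, B cell, fibroblast, endothelial and neutrophil markers summed to at most 7.36 TPM.

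Glycolytic enzymes were among the most abundant transcripts of these cells. The unit TPM divides each count by the gene length and scales the result to the same total in every library, so levels can be compared between genes. Aldoa, an aldolase, had the highest mean of the 38, 2569 TPM over the 6 libraries, which ranked 64 among all genes. Pkm (pyruvate kinase) followed at 2126 TPM, Gapdh (glyceraldehyde phosphate dehydrogenase) at 2069 TPM and Pgk1 (phosphoglycerate kinase) at 1076 TPM, with ranks of 80, 82 and 129. Gpi1 (glucose phosphate isomerase), Tpi1 (triose phosphate isomerase), Pgam1 and Eno1 lay between 583.8 and 904.1 TPM. The glucose transporter Slc2a1 averaged 214.3 TPM and hexokinase and phosphofructokinase genes 24.5 to 112.4 TPM, below each of the enzymes just named. The 18 genes of glycolytic enzymes and lactate dehydrogenases summed to 11690, 11840 and 11860 TPM in LPS and to 11350, 11290 and 11960 TPM in LPS with LIPUS. Their means were 11800 ± 94.6 and 11530 ± 369 TPM (SD, n = 3 each), with overlapping groups, and in each library they made up 1.13% to 1.20% of all transcripts.

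**Figure D2:**
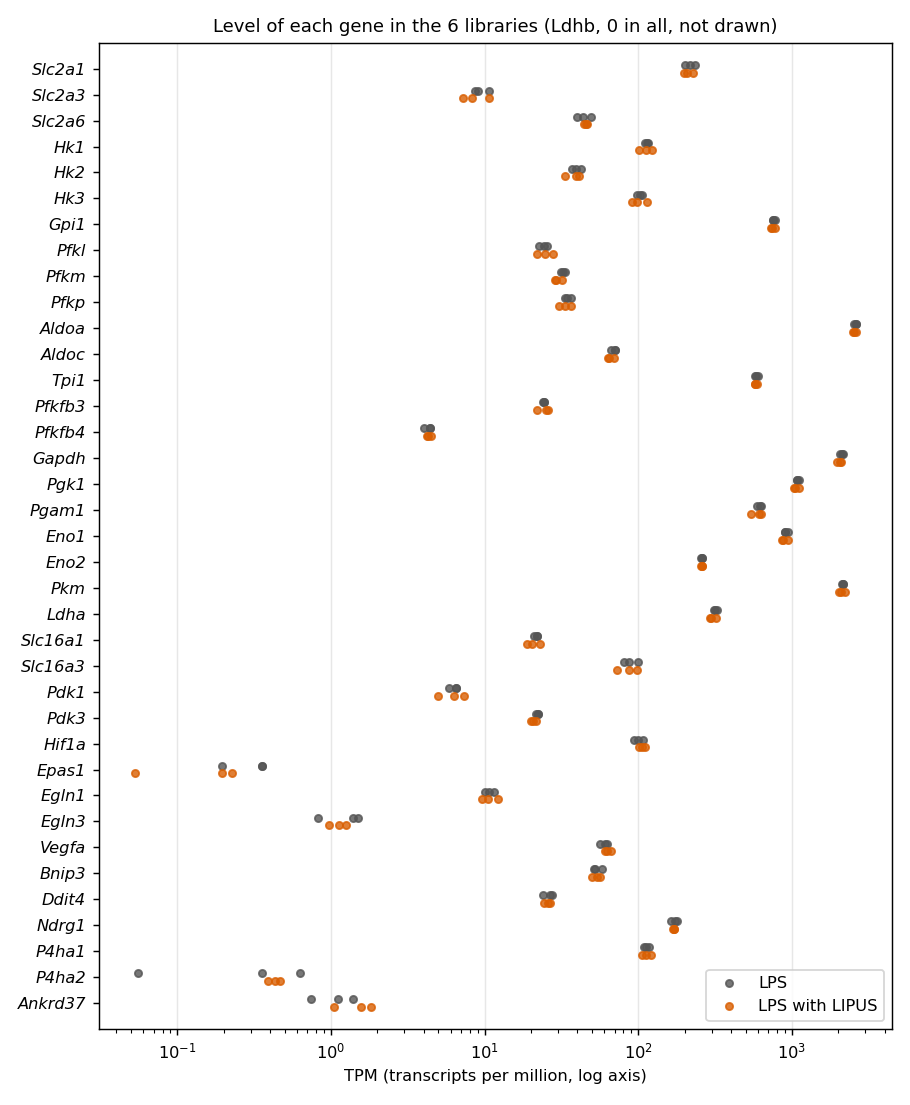
TPM of each gene in the 6 libraries (x axis, log scale), with LPS in grey and LPS with LIPUS in orange, genes ordered by role. Levels run from Epas1 and P4ha2 below 1 TPM to Gapdh, Pkm and Aldoa with means of 2069 to 2569 TPM, and the groups of libraries overlap for each of the 35 tested genes.

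Between libraries, genes are compared in CPM, the count relative to a library size scaled by TMM (edgeR's trimmed mean of M values). In this measure all LPS with LIPUS libraries lay below all LPS libraries for 6 of the 35 genes, or Pfkm, Aldoc, Pgam1, Eno1, Ldha and Pdk3, against 4.63% of all genes tested. The opposite arrangement occurred for 0 of the 35, against 5.09% of all genes. That count depended on how each library was scaled. For a given gene, TPM and CPM differ only by a constant for the gene and a factor per library. The count was 6 with RLE or upper-quartile scaling and 5 with total counts (without Pgam1). In the deposited TPM it was 0, where 2.35% of all genes were arranged that way.

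**Figure D3:**
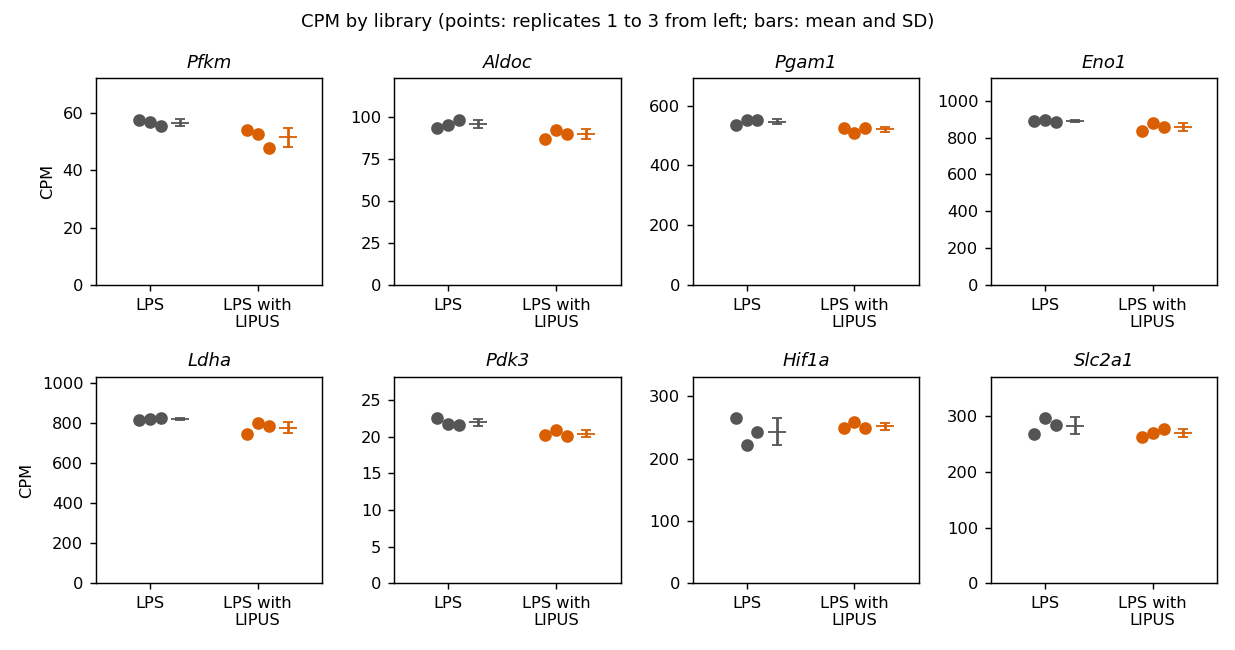
CPM of 8 genes in each library (y axis from 0), with replicates 1 to 3 from left to right in each group and the mean and SD beside them. The first 6 panels are the genes whose groups do not overlap in CPM, and Hif1a and Slc2a1, chosen for their roles, overlap.

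Glucose enters macrophages mainly through the facilitative transporter encoded by Slc2a1 (chr4:119108745-119137330, plus strand, mm10), known as GLUT1. Slc2a1 had 267.8, 296.8 and 285.3 CPM in LPS and 263.1, 270.6 and 277.3 CPM in LPS with LIPUS. The groups overlapped, with LPS replicate 1 below LPS with LIPUS replicates 2 and 3, and the log2 fold change was -0.07 (SE 0.05, -0.11 to -0.03 with 1 library left out). Slc2a3 (GLUT3, a high-affinity transporter) had 23.9, 28.8 and 24.8 CPM in LPS and 22.1, 21.0 and 27.5 CPM in LPS with LIPUS. Its LPS with LIPUS replicate 3 exceeded LPS replicates 1 and 3, and the log2 fold change was -0.14 (SE 0.10). With 1 library left out it ranged from -0.26 (without LPS with LIPUS replicate 3, edgeR adjusted p = 0.581) to -0.05 (without LPS replicate 2), and it was -0.06 without LPS with LIPUS replicate 2. Slc2a6, a transporter of lysosomes and vesicles in macrophages, had a log2 fold change of 0.02 (SE 0.08). By TPM, Slc2a1 made up 80.2% ± 0.66 of the transcripts of these 3 transporters in LPS and 79.5% ± 0.79 in LPS with LIPUS (SD, n = 3 each), followed by Slc2a6 at 16.3% ± 0.50 and 17.2% ± 1.21.

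In the upper steps, 9 of 10 genes had a log2 fold change below 0, with a median of -0.049. Hexokinases trap glucose as glucose phosphate. Hk2, the isoenzyme most often linked to activation and hypoxia, had 103.5, 113.8 and 108.8 CPM in LPS and 104.4, 95.6 and 105.8 CPM in LPS with LIPUS, and a log2 fold change of -0.09 (SE 0.06). The groups overlapped, and LPS with LIPUS replicate 2 was the lowest library. Without it the log2 fold change was -0.05, the smallest in size with 1 library left out, and without LPS replicate 1 it was -0.13. Hk2 was the least abundant of the 3 hexokinases by TPM, at 15.5% ± 0.47 of their sum in LPS and 15.1% ± 0.50 in LPS with LIPUS. Hk1, the housekeeping form, made up 44.4% ± 0.32 and 44.7% ± 0.34, and Hk3, the form of myeloid cells, 40.1% ± 0.16 and 40.2% ± 0.75. The hexokinase makeup thus differed by less than 1 percentage point between groups for each form. Hk1 and Hk3 each had a log2 fold change of -0.05 (SE 0.05).

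Phosphofructokinase adds the phosphate that commits sugar to glycolysis, and its subunits are encoded by Pfkm, Pfkl and Pfkp. Pfkm (chr15:98092589-98132447, plus strand, mm10) had 57.7, 56.8 and 55.4 CPM in LPS and 54.1, 52.7 and 47.8 CPM in LPS with LIPUS. All LPS with LIPUS libraries lay below all LPS libraries, with replicate 3 the lowest, and the log2 fold change was -0.14 (SE 0.07, 95% interval -0.28 to 0.00). It ranged from -0.17 to -0.08 over the alternatives, with adjusted p of at least 0.693. Pfkp had a log2 fold change of -0.08 (SE 0.05) and Pfkl of 0.02 (SE 0.07). In the summed TPM of the 3 subunits, the share of Pfkl was 25.5%, 26.8% and 26.9% in LPS and 27.6%, 27.0% and 29.9% in LPS with LIPUS. These shares did not overlap, with a narrow gap between LPS replicate 3 and LPS with LIPUS replicate 2. With 3 libraries against 3 an exact two-sided permutation test cannot give a p below 0.1. Of the 27 shares computed over the families of isoenzymes, the Pfkl share was the only 1 without overlap. The Pfkm share was 35.6% ± 1.11 and 34.0% ± 2.41 and overlapped.

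Aldolase cleaves the bisphosphate product of phosphofructokinase into triose phosphates. Aldoa had 3035, 3017 and 3078 CPM in LPS and 2878, 3097 and 2868 CPM in LPS with LIPUS. LPS with LIPUS replicate 2 was the highest of all 6 libraries, the groups overlapped, and the log2 fold change was -0.05 (SE 0.06). It was -0.08 without that library and -0.02 without LPS with LIPUS replicate 3. Aldoc, an isoenzyme best known from brain that is also a hypoxia target, had 93.9, 95.7 and 98.6 CPM in LPS and 87.3, 92.7 and 90.4 CPM in LPS with LIPUS. Here the groups did not overlap, although the difference did not pass the test (log2 fold change -0.09, SE 0.05). Aldoa made up 97.4% ± 0.05 of aldolase transcripts in LPS and 97.5% ± 0.07 in LPS with LIPUS. Gpi1 and Tpi1 had log2 fold changes of -0.04 (SE 0.06) and -0.05 (SE 0.05).

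**Figure D4:**
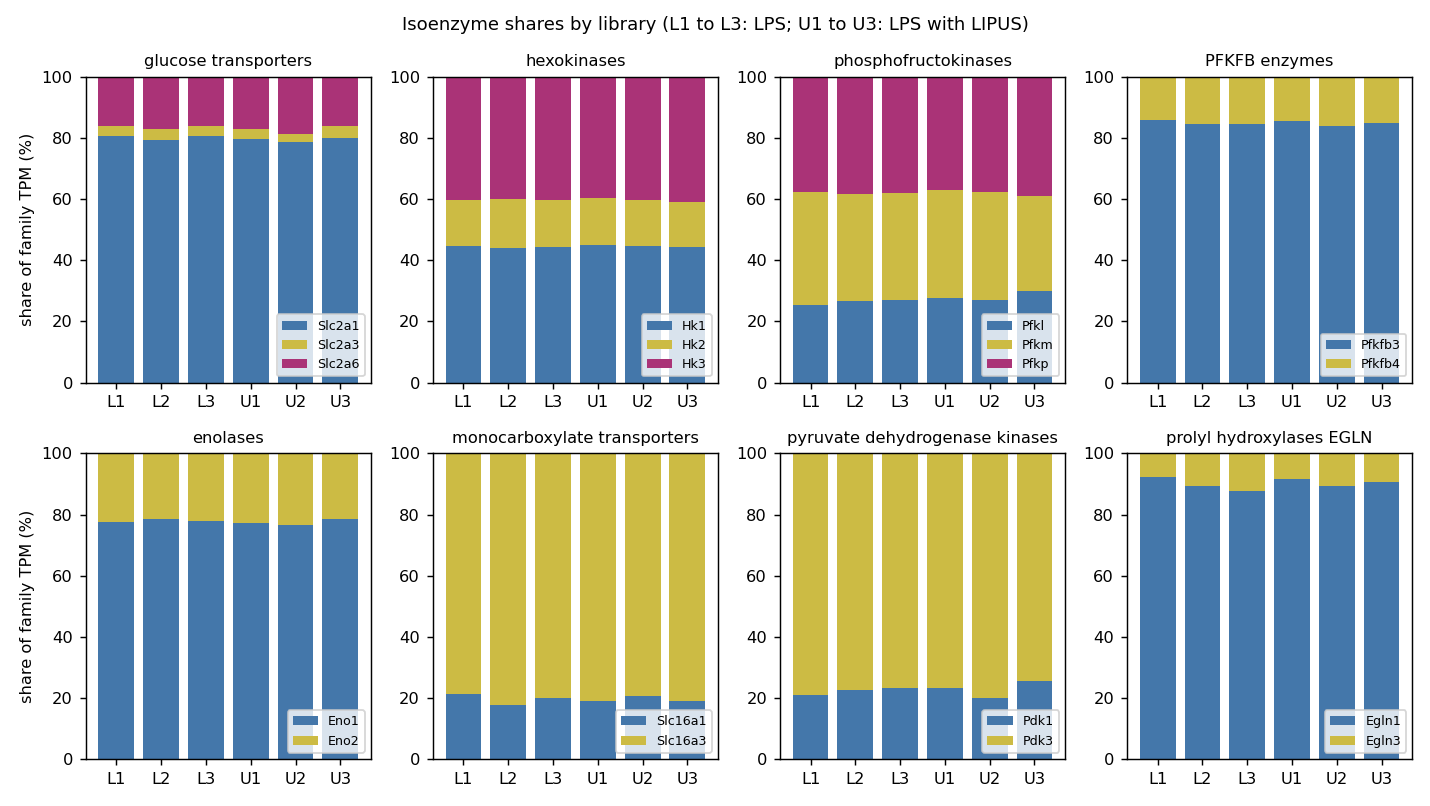
Share of each isoenzyme in the summed TPM of its family (y axis, percent) in each library, where L1 to L3 are the LPS and U1 to U3 the LPS with LIPUS replicates. Sums cover only the forms drawn, and further forms of these families, such as Egln2, are left out. Among the forms drawn the same form led in all 6 libraries, Slc2a1, Hk1, Pfkp, Pfkfb3, Eno1, Slc16a3, Pdk3 and Egln1. Egln2, which is not drawn, had a higher mean than Egln1, 30.02 against 10.74 TPM over the 6 libraries.

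Enzymes of the PFKFB family make and remove fructose 2,6-bisphosphate, which activates phosphofructokinase. Pfkfb3, the form with the strongest kinase activity, is induced by LPS and by hypoxia. Pfkfb3 had 77.2, 74.9 and 75.2 CPM in LPS and 78.7, 72.2 and 73.4 CPM in LPS with LIPUS. The libraries of the groups interleaved, with a log2 fold change of -0.02 (SE 0.06, -0.05 to 0.01 with 1 library left out). Pfkfb4 had a log2 fold change of 0.00 (SE 0.08). Pfkfb3 made up 85.0% ± 0.69 of the TPM of this pair in LPS and 84.8% ± 0.98 in LPS with LIPUS.

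All 6 genes of the lower steps, which yield ATP and pyruvate, had log2 fold changes below 0, between -0.07 and -0.01, and none passed the test. Gapdh and Pgk1 were at -0.07 (SE 0.06) and -0.06 (SE 0.06). Pgam1, the phosphoglycerate mutase of most tissues (chr19:41911871-41918665, plus strand, mm10), had 535.5, 551.7 and 552.5 CPM in LPS and 525.9, 509.4 and 525.0 CPM in LPS with LIPUS. The groups did not overlap (log2 fold change -0.07, SE 0.05). In the deposited TPM they did, with 592.9 to 632.9 in LPS and 544.8 to 630.3 in LPS with LIPUS. Eno1, the ubiquitous enolase (chr4:150236708-150248879, plus strand, mm10), had 890.9, 896.7 and 886.3 CPM in LPS and 834.5, 877.1 and 857.2 CPM in LPS with LIPUS. Its groups also did not overlap (log2 fold change -0.06, SE 0.05, -0.08 to -0.04 with 1 library left out). Eno2, the enolase best known from neurons, had a log2 fold change of -0.01 (SE 0.06) and made up 22.0% ± 0.53 of the TPM of Eno1 and Eno2 in LPS and 22.5% ± 0.95 in LPS with LIPUS.

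The value of Eno1 depends on a near copy. The gene table also lists Eno1b, annotated in it as a retrogene of enolase, with 3718 to 4195 counts per library, and how reads that fit both genes were assigned is not given in the sources used here. Eno1b was added after the counts of both genes were seen. Of the counts of both genes, Eno1b had 22.3% to 24.0% per library, and its log2 fold change was 0.02 (SE 0.05). The sum of Eno1 and Eno1b was 1147, 1163 and 1148 CPM in LPS and 1087, 1149 and 1128 CPM in LPS with LIPUS. With the copy included the groups overlapped, since LPS with LIPUS replicate 2 exceeded LPS replicates 1 and 3. Gapdh and other glycolytic genes also have many processed pseudogenes in the mouse genome, so their counts carry the same uncertainty.

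Pyruvate kinase closes glycolysis, and the Pkm gene (chr9:59656576-59679372, plus strand, mm10) makes it in alternative forms through a choice between a pair of neighbouring exons. The M2 exon marks the form of proliferating cells and of LPS-activated macrophages, and the M1 exon the form of muscle and brain. Both exons are 167 bases long, coding and number 9 in their transcripts, and they differ at 64 positions (61.7% identical). They are shown because reads that tell the forms apart must touch them or their junctions. The sequences are those of GENCODE M21 transcripts on mm10, plus strand, for chr9:59675029-59675195 (M1) and chr9:59675568-59675734 (M2), with the differing bases in capitals.
M1 exon: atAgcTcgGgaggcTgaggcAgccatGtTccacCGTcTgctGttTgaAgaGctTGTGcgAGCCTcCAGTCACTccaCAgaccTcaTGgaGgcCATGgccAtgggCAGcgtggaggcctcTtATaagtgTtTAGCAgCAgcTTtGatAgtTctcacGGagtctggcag
M2 exon: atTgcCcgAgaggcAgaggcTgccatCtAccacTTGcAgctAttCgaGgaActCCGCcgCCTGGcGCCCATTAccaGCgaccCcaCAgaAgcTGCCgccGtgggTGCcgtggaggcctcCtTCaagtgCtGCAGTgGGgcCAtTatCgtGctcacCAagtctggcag

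Pkm as a whole had 4260, 4174 and 4277 CPM in LPS and 3995, 4238 and 4130 CPM in LPS with LIPUS. LPS with LIPUS replicate 2 lay among the LPS libraries, and the log2 fold change was -0.04 (SE 0.06). It was -0.06 without that library and -0.01 without LPS with LIPUS replicate 1. The deposited transcript table counts reads for more than 1 transcript, so the transcripts of a gene share most of their reads. The M1 and M2 transcripts NM_001253883 and NM_011099, each 2221 bases long, differ in that exon alone. The M2 transcript had 65607, 64434 and 62376 counts in LPS and 57594, 59265 and 58533 in LPS with LIPUS. The M1 transcript had 56633, 55765 and 53560 counts in LPS and 49426, 51262 and 50570 in LPS with LIPUS. The surplus of the M2 over the M1 transcript was 8974, 8669 and 8816 counts in LPS and 8168, 8003 and 7963 counts in LPS with LIPUS. Provided that a read counts for every transcript it fits, reads specific to the M2 exon outnumbered those specific to the M1 exon in all 6 libraries. As a share of the gene's counts the surplus was 13.5% ± 0.35 in LPS and 13.5% ± 0.36 in LPS with LIPUS (SD, n = 3 each). Counts of the gene that the M2 transcript did not take were 1148 to 1379 per library. If a read counts for every transcript that it fits, they bound the M1 share of the exon-specific reads at 10.7% to 12.0%. The assignment rule is not given in the sources used here, so this bound and the excess of M2 exon reads depend on that condition. The 12 listed Pkm transcripts had log2 fold changes of -0.04 each.

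**Figure D5:**
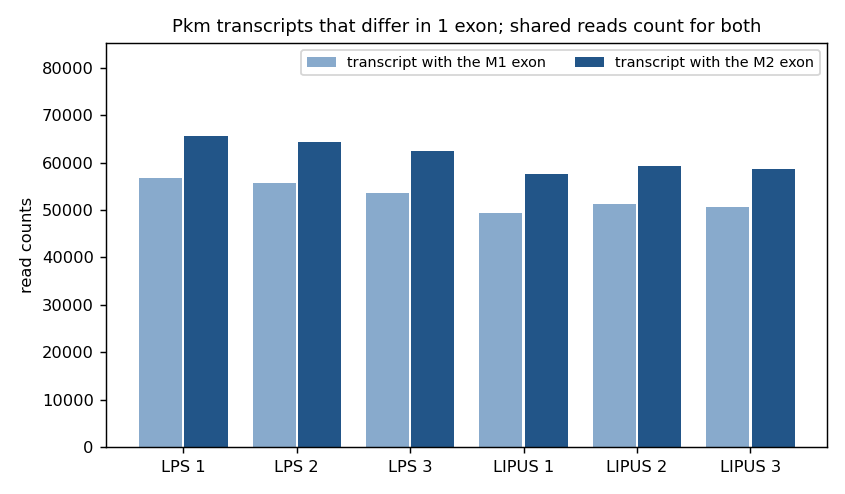
Read counts (y axis from 0) of the Pkm transcripts that carry the M1 exon (light) and the M2 exon (dark) in each library, in the deposited transcript table. Shared reads count for both bars, and the M2 bar exceeds the M1 bar by 7963 to 8974 counts in each library.

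Lactate dehydrogenase returns pyruvate to lactate and regenerates the NAD that glycolysis needs. Ldha (chr7:46842274-46855627, plus strand, mm10), the subunit of glycolytic tissues, had 814.5, 820.6 and 823.5 CPM in LPS and 746.2, 800.2 and 781.9 CPM in LPS with LIPUS. All LPS with LIPUS libraries lay below all LPS libraries, with replicate 1 the lowest, and the difference did not pass the test (log2 fold change -0.08, SE 0.05). Over the alternatives the log2 fold change of Ldha ranged from -0.10 to -0.05, with adjusted p of at least 0.672. In the deposited TPM, Ldha ranged from 293.5 to 322.8, and the groups overlapped. Ldhb, the heart-type subunit, had 0 counts in all 6 libraries. A count of 0 allows up to 3 counts, or 0.297 to 0.350 TPM per library, so Ldhb could make up at most 0.095% to 0.112% of lactate dehydrogenase transcripts. Slc16a3 (MCT4, the lactate exporter of glycolytic cells) and Slc16a1 (MCT1) had log2 fold changes of -0.09 (SE 0.07) and -0.08 (SE 0.07). Slc16a3 made up 80.4% of the TPM of both in each group (SD 1.88 in LPS and 0.96 in LPS with LIPUS, n = 3 each).

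Pyruvate dehydrogenase kinases switch off the entry of pyruvate into mitochondria. Pdk1, the hypoxia-induced form, had 18.8, 20.1 and 20.5 CPM in LPS and 19.4, 16.5 and 21.6 CPM in LPS with LIPUS. The groups overlapped, and the highest and the lowest library both belonged to LPS with LIPUS (log2 fold change -0.04, SE 0.10). Without LPS with LIPUS replicate 2 it was 0.05, and without LPS with LIPUS replicate 3 it was -0.13. Pdk3 (chrX:93764616-93832150, minus strand, mm10), the more abundant form at 77.8% ± 1.18 of the TPM of both in LPS and 77.1% ± 2.70 in LPS with LIPUS, had 22.5, 21.8 and 21.5 CPM in LPS and 20.2, 20.9 and 20.1 CPM in LPS with LIPUS. Its groups did not overlap in CPM (log2 fold change -0.11, SE 0.08).

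The regulators of the hypoxia response gave no call either. Hif1a (chr12:73901324-73947554, plus strand, mm10), which encodes the alpha subunit that drives most glycolytic targets, averaged 243.2 ± 21.4 CPM in LPS and 251.7 ± 5.63 CPM in LPS with LIPUS (SD, n = 3 each). The LPS with LIPUS libraries had 248.1, 258.2 and 248.8 CPM, and LPS replicates 2 and 3 had 221.9 and 242.9 CPM, with replicate 1 above all other libraries. The LPS libraries spanned the whole range of the LPS with LIPUS libraries, and the log2 fold change was 0.05 (SE 0.06). It was -0.01 without LPS replicate 2, the lowest library, and 0.12 without LPS replicate 1, the highest. HIF protein, which is set largely by its destruction, was not measured. Hif1a made up 99.7% of the summed TPM of Hif1a and Epas1 in LPS and 99.9% in LPS with LIPUS. Epas1, the alpha subunit of HIF-2, had 15, 8 and 14 counts in LPS and 2, 9 and 7 in LPS with LIPUS and did not pass the filter on low counts. The summed counts were 37 and 18, and their ratio per scaled library size was 0.519 with an exact 95% interval of 0.278 to 0.935 that covers counting error only. The groups overlapped, since LPS with LIPUS replicate 2 had more reads than LPS replicate 2. Without the filter, edgeR gave Epas1 a log2 fold change of -0.93 (adjusted p = 0.899). Epas1 passed the filter in 4 of the fits with 1 library left out, and only through LPS replicates 1 and 3, where its counts were highest. These fits are thus no separate evidence of a difference. In them its log2 fold change ranged from -1.35 (without LPS with LIPUS replicate 2) to -0.51 (without LPS with LIPUS replicate 1), with edgeR adjusted p of at least 0.654. The EGLN hydroxylases mark HIF alpha for destruction, and Egln3 is itself a HIF target. Egln1 had a log2 fold change of -0.02 (SE 0.10) and made up 89.8% ± 2.42 of the TPM of Egln1 and Egln3 in LPS and 90.6% ± 1.08 in LPS with LIPUS. That share leaves out Egln2, a further gene that controls HIF, whose mean of 30.02 TPM over all libraries exceeded the 10.74 TPM of Egln1. Egln3, at 0.82 to 1.50 TPM, had a log2 fold change of -0.16 with a wide 95% interval of -0.81 to 0.49.

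Of the targets outside glycolysis, 6 of 7 were tested, 2 with a log2 fold change above 0 and 4 below. Vegfa, the growth factor for blood vessels, had 116.5, 120.9 and 126.3 CPM in LPS and 130.9, 128.5 and 118.1 CPM in LPS with LIPUS. LPS with LIPUS replicate 3 lay among the LPS libraries, and the log2 fold change was 0.05 (SE 0.06, 0.03 to 0.10 with 1 library left out). Bnip3, a receptor for removal of mitochondria, had 45.2, 48.3 and 43.8 CPM in LPS and 44.8, 44.6 and 45.0 CPM in LPS with LIPUS. The LPS with LIPUS libraries lay inside the LPS range (log2 fold change -0.03, SE 0.07, -0.06 to 0.01 with 1 library left out). Ndrg1, a stress-responsive gene and the most abundant of these targets at 170.4 TPM, had 255.4, 224.1 and 242.5 CPM in LPS and 232.1, 246.2 and 225.0 CPM in LPS with LIPUS. Its LPS with LIPUS libraries also lay inside the LPS range (log2 fold change -0.04, SE 0.06, -0.08 to 0.01 with 1 library left out). Ankrd37, a small ankyrin-repeat gene, had the highest log2 fold change of the 35, at 0.42 (SE 0.33, 95% interval -0.26 to 1.11). Its values were 1.21, 1.46 and 0.81 CPM in LPS and 1.90, 1.19 and 1.59 CPM in LPS with LIPUS, and LPS with LIPUS replicate 2 lay below LPS replicates 1 and 2. The log2 fold change of Ankrd37 was 0.23 without LPS replicate 3 and 0.63 without LPS replicate 2, and 0.25 on the log2(TPM + 1) scale. Ddit4, which restrains mTOR signalling, had a log2 fold change of -0.04 (SE 0.10). P4ha1, a prolyl hydroxylase of collagen, was at -0.02 (SE 0.05) and outnumbered P4ha2 with 99.7% of their summed TPM in LPS. P4ha2 had 18 counts over the LPS and 21 over the LPS with LIPUS libraries, a ratio of 1.24 (exact 95% interval 0.631 to 2.48, counting error only) whose interval includes 1. The 7 targets together summed to 425.5 ± 7.87 TPM in LPS and 426.0 ± 14.7 TPM in LPS with LIPUS (SD, n = 3 each).

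At the level of transcripts, 137 transcripts of these genes were tested and 0 had an adjusted p below 0.05, against 0.0% of 52257 transcripts tested (edgeR's quasi-likelihood test, adjusted over 52257). The counts at an unadjusted p below 0.05 were 0 of 137 and 2814 of 52257. The log2 fold changes of the 137 ranged from -0.16 to 0.43. Of the genes, 24 had 2 or more tested transcripts, which share most of their reads. The 9 transcripts of Hk1, NM_010438 of 4100 bases and NM_001146100 of 4157 bases among them, had values from -0.06 to -0.05. The 10 transcripts of Vegfa had values from 0.02 to 0.06, with 0.04 for NM_001025250 (3531 bases), 0.04 for NM_001287057 (3459 bases) and 0.06 for NM_001025257 (3327 bases). Because these transcripts share reads, near values within a gene follow in part from how the table counts.

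The promoters of many of these genes hold the core to which hypoxia-inducible factors bind. The core was searched as ACGTG or GCGTG on both strands in the 250 bases upstream of each start in RefSeq's promoter table (build GRCm38.p6). A CACGTG palindrome counts on both strands. Promoters were found for 35 of the 38 genes (all but Slc2a3, Epas1 and Ndrg1), with 49 starts, and 40 of the 49, or 81.6%, held the core, against 38.6% of all 32851 promoters in the table. The longer form GACGTG was in 11 of 49 (22.4%) and in 5.20% of all. These promoters are rich in CG dinucleotides, with a median of 14 against 6 over all promoters, and the core contains CG. Among the 9646 promoters with at least 14 CG dinucleotides, 67.3% held the core and 9.66% held GACGTG. A match is a stretch of letters and not a site of binding, and binding was not measured. The promoters of the main glucose transporter, of a central enzyme and of the lactate-forming step are shown from 250 bases to 1 base before the start, plus strand, with matches on either strand in capitals. They are chr4:119108495-119108744 for Slc2a1, chrX:106186850-106187099 for Pgk1 and chr7:46845554-46845803 for Ldha. Ldha has 2 starts in the promoter table and is shown for the upstream of them. This Ldha stretch lies inside the gene as deposited (chr7:46842274-46855627), while those of Slc2a1 and Pgk1 end just before their deposited genes.
Slc2a1 promoter: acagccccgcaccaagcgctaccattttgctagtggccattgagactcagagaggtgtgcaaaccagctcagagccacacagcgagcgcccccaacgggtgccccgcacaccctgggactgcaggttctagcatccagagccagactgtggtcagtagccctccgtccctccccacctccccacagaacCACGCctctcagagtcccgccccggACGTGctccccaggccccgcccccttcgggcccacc
Pgk1 promoter: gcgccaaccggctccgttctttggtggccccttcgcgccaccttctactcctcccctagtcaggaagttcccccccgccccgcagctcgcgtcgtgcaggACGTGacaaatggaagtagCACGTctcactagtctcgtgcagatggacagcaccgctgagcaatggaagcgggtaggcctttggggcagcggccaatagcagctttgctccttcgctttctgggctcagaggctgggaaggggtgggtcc
Ldha promoter: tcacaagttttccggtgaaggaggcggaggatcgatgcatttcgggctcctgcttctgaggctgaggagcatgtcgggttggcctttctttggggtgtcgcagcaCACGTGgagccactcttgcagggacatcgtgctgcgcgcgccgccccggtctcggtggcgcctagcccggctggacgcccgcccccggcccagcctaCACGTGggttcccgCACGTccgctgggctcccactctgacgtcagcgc

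Slc2a1 has 2 matches, which begin at positions -61 and -36 from the start. Pgk1 has 2, at -150 and -131, and Ldha has 5 between -145 and -34, with 2 CACGTG palindromes among them. Transcript levels of these 3 genes had log2 fold changes of -0.07, -0.06 and -0.08, none past the test.

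Other genes of these pathways, from 5 lists of 101 genes of which 100 were found and 80 tested, also gave 0 calls (adjusted p below 0.05, edgeR's quasi-likelihood test). At an unadjusted p below 0.05 in that test were 3 of the 80, against 4.61% of all genes tested. Further glycolytic enzymes and transporters had 10 log2 fold changes above 0 and 8 below among 18 tested, with a median of 0.02. Slc16a4, a monocarboxylate transporter, had the largest value of them, 1.36 (SE 0.46, edgeR adjusted p = 0.851), on 10, 3 and 8 counts in LPS and 21, 20 and 10 counts in LPS with LIPUS. It averaged 0.66 TPM and passed the filter on low counts only through its LPS with LIPUS libraries. Its groups did not overlap in CPM, with a narrow gap between LPS replicate 1 at 0.64 and LPS with LIPUS replicate 3 at 0.69 CPM. That arrangement follows from how Slc16a4 passed the filter and is no separate evidence of a difference. The authors' deposited table gives Slc16a4 a log2 fold change of 1.36 and an unadjusted p of 0.000502, and it is the 1 gene of these lists among the 351 that the authors' deposited table of changed genes holds. Pfkfb2, a further PFKFB enzyme, had a log2 fold change of 0.13 (SE 0.06), and Bsg, the chaperone of lactate transporters and the most abundant gene of the list at 464.0 TPM, one of -0.02 (SE 0.06).

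The genes of pyruvate entry into mitochondria had 4 values above 0 and 7 below among 11 tested (median -0.021). Mpc1, a subunit of the mitochondrial pyruvate carrier, was at -0.11 (SE 0.08), Dlat, a core subunit of pyruvate dehydrogenase, at -0.08 (SE 0.06) and Pdhb, a subunit of its first enzyme, at 0.03 (SE 0.06). In the pentose phosphate pathway, which branches off after the hexokinase step, 5 of 8 tested genes were above 0 and 3 below (median 0.022). G6pdx, its entry enzyme, was at -0.08 (SE 0.05), Rpia at 0.11 (SE 0.10) and Taldo1, the most abundant at 398.9 TPM, at 0.02 (SE 0.05). Genes that control HIF had 3 values above 0 and 9 below among 12 tested (median -0.029). Of these, Hif1an, a hydroxylase that blocks HIF activity, was at -0.06 (SE 0.08) and Cited2, a HIF-induced inhibitor, at -0.06 (SE 0.07). Among 31 further hypoxia targets tested, 15 were above and 16 below 0 (median -0.009). Adm, the vasodilator peptide adrenomedullin, had 3.05, 2.03 and 2.36 CPM in LPS and 3.47, 4.42 and 3.39 CPM in LPS with LIPUS. Its groups did not overlap, with a log2 fold change of 0.60 (SE 0.22, edgeR adjusted p = 0.963). Errfi1, an inhibitor of EGF receptor signalling, was at 0.33 (SE 0.14, edgeR adjusted p = 0.999) with overlapping groups, and Mif, a cytokine and the most abundant of the list at 1759 TPM, at -0.06 (SE 0.06).

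In the authors' deposited table of all genes, 1 of the 37 genes with a count had an unadjusted p below 0.05, Epas1 with a p of 0.0383 and a log2 fold change of -0.93, against 5.05% of all 20780 genes with a count. The authors' deposited table of changed genes holds 351, or 1.69% of those genes, and 0 of the 37.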

How the data were processed

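Poly(A)-selected RNA of 6 samples was sequenced as paired-end Illumina reads, per the labels' protocols. The submitters' processing notes name bcl2fastq and build mm10. The aligner, counting tool, annotation release and strand setting were not given in the sources used here. The authors deposited raw read counts per gene and per transcript, TPM per gene, and their own comparison tables with log2 fold changes and unadjusted p-values, per the file headers. A further 30 per-sample columns were not used. Gene coordinates are the deposited ones.

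Total counts of 14171061 to 15956693 per library set the precision, and intervals and floors on summed counts cover counting error only. Counts were analysed in R 4.3.3 with edgeR 4.0.16's quasi-likelihood test (TMM scaling, group as the term, two-sided, Benjamini-Hochberg adjustment, threshold 0.05). filterByExpr with a minimum count of 10 kept 12571 of 39089 genes. The deposited transcript counts, which count some reads for more than 1 transcript, were fitted the same way. The test was checked on simulated data. Alternatives were DESeq2 1.42.0, RLE and upper-quartile scaling, no filter, filtering at 1 CPM in 3 libraries, limma 3.58.1 on log2(TPM + 1) and log2(TPM + 0.1), a replicate block, and dropping each library in turn. The genes and lists were chosen with earlier results of these data known. Per-library values are given, in each role group, for the gene of highest mean TPM and that of smallest p, for genes whose groups do not overlap in CPM, and for Slc2a1, Hk2, Pfkfb3, Ldha, Pkm, Pdk1, Hif1a, Vegfa and Bnip3. Of each further list the 2 genes of smallest p and that of highest TPM are named. Eno1b was added after the counts of Eno1 and Eno1b were seen.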

Additional observations from a re-analysis of the deposited data

How the results depend on the processing

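In each of 14 alternatives, 35 to 37 of the 38 genes were tested, and 0 of them had an adjusted p below 0.05. The smallest was 0.542, for Gapdh without LPS with LIPUS replicate 2 (edgeR log2 fold change -0.13). Over all genes the count of calls was 0 in the main test, 31 without the filter, and 0 to 6 when a library was left out. Transcript calls were 0, and 0 to 10 when a library was left out. The cause of these calls was not tested. The median log2 fold change of the 35 genes was -0.046 and was -0.028 on log2(TPM + 1), where the median of all genes moved alike, from -0.005 to 0.012. It ranged from -0.060 to -0.027 when a library was left out. The count of genes whose LPS with LIPUS libraries all lay below the LPS libraries was 0 in the deposited TPM, an alternative chosen after seeing the data. Of 252 values of the 18 named genes under the alternatives, 245 kept their sign and their side of the threshold and 7 turned sign. Those 7 were Pfkfb3 on log2(TPM + 1) (0.0003) and log2(TPM + 0.1) (0.0001), within that common shift, and, with a library left out, Pfkfb3 (range -0.053 to 0.006), Pdk1 (-0.13 to 0.0517), Ndrg1 (-0.0845 to 0.0071), Hif1a (-0.01 to 0.115) and Bnip3 (-0.058 to 0.0115). Same-numbered samples did not deviate together (correlations 0.0089, -0.072 and 0.011). Correlations of differently numbered samples lay between -0.072 and 0.065. With 3 libraries per group such values cannot show whether the numbers are a pairing, and the labels do not state one. With the replicate number as a block, 5 genes and 11 transcripts were called over all, and 0 of the 35 tested genes described here. Low counts limit Epas1, P4ha2, Egln3 and Ankrd37, where intervals run as wide as 0.569 to 1.40-fold (Egln3) and 0.833 to 2.16-fold (Ankrd37), so differences well beyond 1.25-fold could go undetected.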
